A study of Mus musculus with 7 samples.

Results

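Axonemal dyneins, tektins and cilia-associated proteins were followed in mouse sperm RNA across 7 expression arrays. Members were all probe sets that carried a single gene symbol in the platform annotation and whose symbol began with Dnah, Dnai, Dnaic, Dnal, Cfap, Tekt, Rsph, Drc, Dynlrb, Dynll or Dynlt and a digit, or was Spag6, Spag6l, Spag16, Spag17 or Meig1. The rule used names and no measured values. It gave 72 genes on 77 probe sets, of 22154 genes on 23493 probe sets in all. They comprised 11 genes for dynein heavy chains, 9 for intermediate or light chains, 5 tektins, 7 radial spoke genes, 3 Drc genes, 32 Cfap genes, and 5 genes of the Spag and Meig1 group. A probe set is a group of probes summarised to 1 value.

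The axoneme is the microtubule core of a motile cilium or of the sperm tail, with doublet microtubules arranged around a central pair. Axonemal dyneins are motors built from heavy, intermediate and light chains that slide neighbouring doublets, radial spokes and the nexin-dynein regulatory complex (the Drc proteins) link dyneins and the central pair in controlling the beat, and tektins and many Cfap proteins line or brace the doublets. In male germ cells most of these genes are transcribed in meiotic cells and round spermatids, before transcription stops and the tail is completed, so the RNA found in sperm was made earlier.

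The study compared sperm RNA of C57BL/6 mice with sperm RNA of a mouse line carrying a KDM1A transgene, which encodes a histone lysine demethylase. C57BL/6 was represented by 1 array, a pool of 5 males. TG3 had 3 arrays of males that carried the transgene in generation 3, and nonTG3 had 3 arrays of their littermates without it, each array a pool of 4 males. The construct had been injected into C57BL/6 zygotes, a pair of female founders was obtained, and the transgene passed down through heterozygous males mated to C57BL/6 females, so every nonTG3 male also descended from carriers. Here "the line" means TG3 and nonTG3 together, 6 arrays. Neither the promoter that drives the transgene nor whether a male entered more than 1 pool is given in the sources used here. Values are on the log2 scale of RMA, as deposited by the authors, so a difference of 1 is a factor of 2, and levels of different probe sets cannot be set against each other. The array medians lay between 3.52 and 3.61.

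Sperm and late spermatid markers had a mean of 10.61 on the C57BL/6 array and of 9.64 to 10.04 on the line's arrays, far above the array medians. In that list 7 of 8 probe sets were lower in the line and limma called 2, Tnp1 and Prm1, both also with any single array of the line left out. Of all probe sets, limma called 2.85% lower in the line at an adjusted p under 0.05. Markers of multiciliated epithelium, the other cell type of the male tract that builds axonemes, averaged 3.87 on the C57BL/6 array and 3.98 to 4.13 in the line, and limma called 0 of 8, with 2 at an unadjusted p under 0.05. Calls were also made in lists of other cells: 4 of 6 meiotic and round spermatid markers were called lower in the line by the same test, with a mean of 6.77 against 4.62 to 4.84, as were 4 of 6 Leydig cell markers. The Leydig markers averaged 4.18 on the C57BL/6 array and 2.43 to 2.70 in the line, below the lowest array median. Of 6 Sertoli cell markers 3 were below and 3 above C57BL/6, with 1 called lower, Cst9, at a log2 difference of -4.72. Of 7 probe sets in the epididymal list 6 were above and 1 was below, Defb19, which was called at -6.26, the lowest difference of all probe sets tested. Defb19 went against the rest of that list, and which cell type its RNA came from was not tested. The part of these cells in the results for the axonemal genes was not tested. In bulk RNA, fewer cells of a type and less RNA per cell cannot be told apart. Within the line, RNA encoded by the mitochondrial genome was low on TG3 replicate 1 and nonTG3 replicate 3, at means of 8.80 and 8.91, where the other 4 line arrays had 9.98 to 11.55.

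Promoters are shown for 4 members that were called lower in the line, because letters near the start site can be set beside the values that follow. Of the called members 8 genes had a promoter, and the 4 shown are those that held a match to either set of letters below. The others, Cfap36, Tekt1, Rsph9 and Cfap161, held no match and are not shown. A match to either set was in 4 of 11 promoters of called members, 36.4%. That is near the 31.1% (23 of 74) of all member promoters, where 3.68% of all promoters held one. The RefSeq promoter table (GRCm38.p6, 250 bases before to 50 after each start site) held 74 promoters for 64 of the 72 genes. The X-box, the element bound by Rfx factors, was searched as GTNNCCNNNGNAAC on both strands, and the letters found are in capitals as they read on the gene's strand, which is the reverse complement where the match lies on the other strand. Cfap45 (chr1:172520880-172521179, plus strand) had a match that begins 19 bases before the start site, written as an offset of -19. Tekt4 (chr17:25471340-25471639, plus strand) had matches at offsets of -160 and 0. Dynlrb2 (chr8:116504765-116505064, plus strand) and Meig1 (chr2:3419080-3419379, minus strand) had no such match, and the capitals in them mark the same letters with 1 base fewer in the middle, GTNNCCNNGNAAC, at offsets of -51 and 37.
Cfap45: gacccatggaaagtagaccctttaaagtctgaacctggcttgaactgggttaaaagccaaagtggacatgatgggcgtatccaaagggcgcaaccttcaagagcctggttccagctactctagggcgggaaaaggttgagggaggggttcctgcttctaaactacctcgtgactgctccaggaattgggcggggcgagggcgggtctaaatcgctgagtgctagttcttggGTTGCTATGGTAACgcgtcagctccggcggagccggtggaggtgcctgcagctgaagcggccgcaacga
Tekt4: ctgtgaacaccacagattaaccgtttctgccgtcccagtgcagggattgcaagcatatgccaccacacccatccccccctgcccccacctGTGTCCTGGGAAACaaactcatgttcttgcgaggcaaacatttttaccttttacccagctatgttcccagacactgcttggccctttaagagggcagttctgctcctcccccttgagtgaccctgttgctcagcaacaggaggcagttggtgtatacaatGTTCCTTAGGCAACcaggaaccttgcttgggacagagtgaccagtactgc
Dynlrb2: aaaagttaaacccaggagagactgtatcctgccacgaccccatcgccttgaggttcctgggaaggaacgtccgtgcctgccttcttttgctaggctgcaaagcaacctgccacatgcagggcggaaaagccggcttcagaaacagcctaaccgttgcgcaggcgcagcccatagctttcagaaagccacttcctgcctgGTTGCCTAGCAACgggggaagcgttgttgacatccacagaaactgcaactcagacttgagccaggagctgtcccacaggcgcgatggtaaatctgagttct
Meig1: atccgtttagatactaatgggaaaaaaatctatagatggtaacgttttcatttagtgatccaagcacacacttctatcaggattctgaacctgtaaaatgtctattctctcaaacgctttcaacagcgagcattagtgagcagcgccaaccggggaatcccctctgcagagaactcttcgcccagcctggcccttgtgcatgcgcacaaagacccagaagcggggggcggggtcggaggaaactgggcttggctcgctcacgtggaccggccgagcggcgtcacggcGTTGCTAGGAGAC

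An X-box match was present in 10 of 74 member promoters, 13.5%, against 714 of all 32851 promoters, 2.17%. Those promoters belonged to Cfap20dc, Cfap206, Cfap298, Cfap44, Cfap45, Cfap61, Dnah17, Spag16, Spag6l and Tekt4, and 5 of the matches began within 30 bases of the start site. The shorter spacing was searched only after the Dynlrb2 promoter had been read, so its hit there is no finding. It was in 13 of 74 member promoters, 17.6%, against 1.56% of all promoters, and belonged to 11 genes: Cfap58, Cfap99, Dnah9, Dnaic1, Dnaic2, Drc3, Dynlrb2, Meig1, Rsph14, Rsph3b and Tekt2. The cAMP response element TGACGTCA was in 2 of 74, 2.70%, against 1.79% of all, in Dnah6 and Spag6l. A match is a description of letters, and binding was not measured.
The X-box matches nearest the start sites in members other than Cfap45 and Tekt4 are shown to let their spacing be compared.
Cfap206: GTTTCCACGGTTAC
Cfap44: GTTGCTATGGCAAC
Cfap61: GTTTCCTTAGCAAC

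The comparison of the line with C57BL/6 asks how sperm RNA of males descended from carriers differs from that of the strain the line was made in. Axonemal RNAs were called lower in the line for 10 of 77 probe sets and higher for 0. The called decreases were in Dynlrb2, Meig1, Rsph1, Cfap36, Tekt1, Tekt4, Cfap97, Rsph9, Cfap45 and Cfap161, and ranged from 1.52-fold to 13.3-fold. By class they were 4 of 32 Cfap, 2 of 6 tektin, 2 of 8 radial spoke, 1 of 9 intermediate or light chain, 1 of 7 Spag and Meig1, 0 of 3 Drc and 0 of 12 heavy chain probe sets. By limma at an adjusted p under 0.05, 2.85% of all probe sets were lower and 0.17% were higher, against 13.0% and 0% of the members. At an unadjusted p under 0.05 were 39.0% of the members and 12.2% of all probe sets. The median log2 difference of the members was -0.31, with 59 of 77 below 0, and that of all probe sets was 0.04. All 6 arrays of the line read below the C57BL/6 array for 41 members, 53.2%, where 14.3% of all probe sets did so, and above it for 3 members, Cfap97d2, Dnah11 and Rsph4a, against 18.2%. The C57BL/6 array has no replicate and is assumed to vary like the others, and the labels do not say whether its pool was processed together with those of the line. Leaving out 1 array of the line at a time gave 4 calls without TG3 replicate 2, nonTG3 replicate 1 or nonTG3 replicate 3, 6 without nonTG3 replicate 2, 7 without TG3 replicate 1 and 11 without TG3 replicate 3. Of all probe sets, 1.46% to 2.04% were called lower in those fits. Without both arrays of low mitochondrial RNA there were 0 calls by limma among the members and 0 among all probe sets, with 36.4% and 13.7% at an unadjusted p under 0.05.

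**Figure D1:**
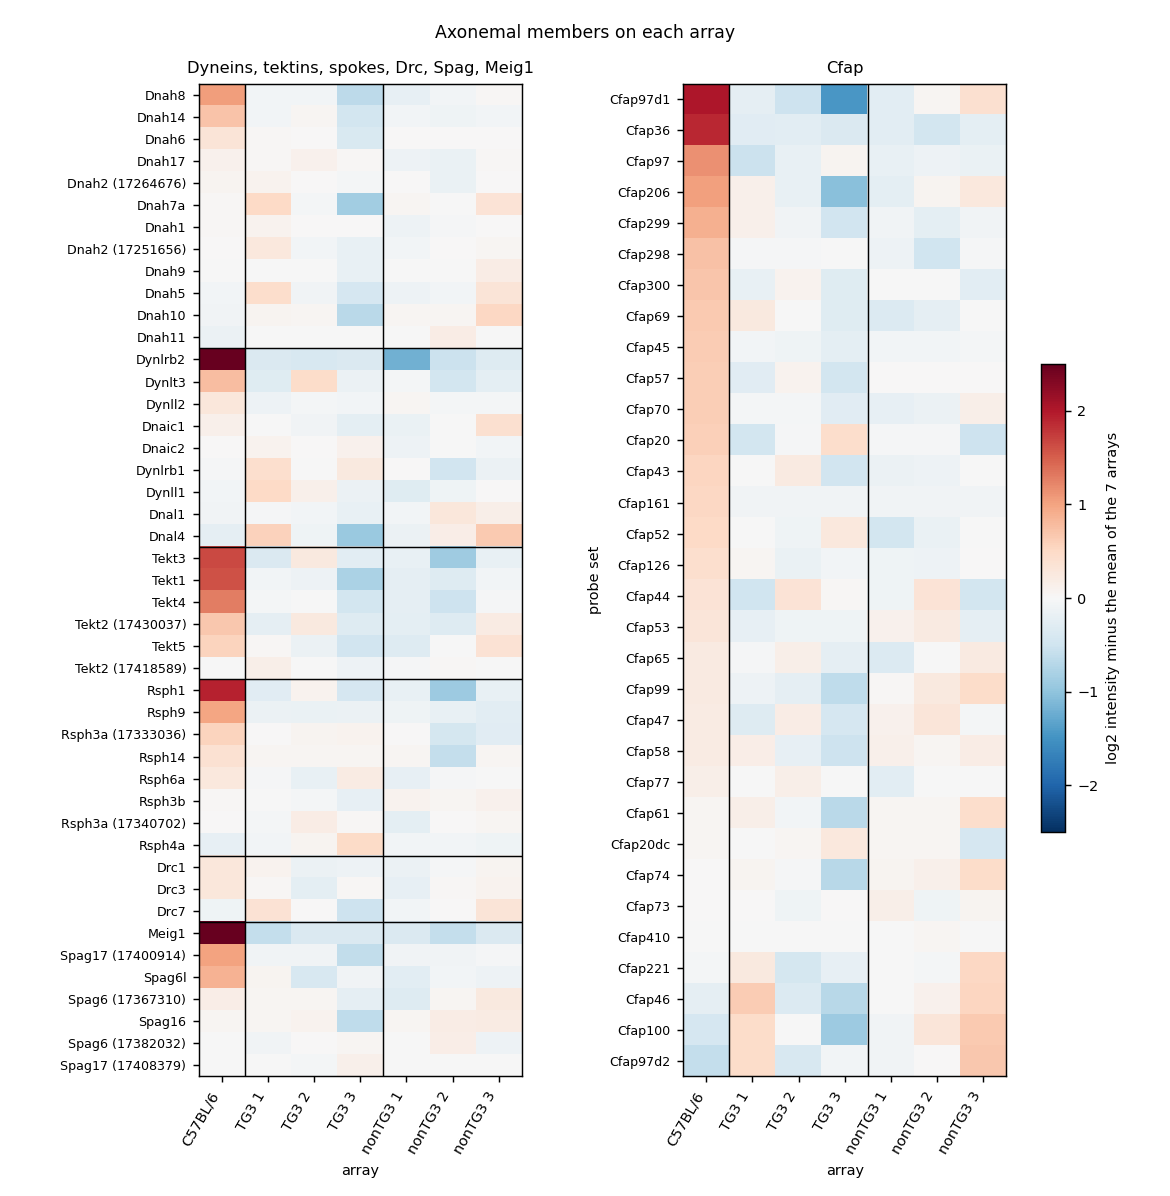
Each of the 77 member probe sets (rows, by class on the left and Cfap genes on the right) on each of the 7 arrays (columns), coloured by its log2 intensity minus its mean over the 7 arrays. The C57BL/6 column is the reddest for most Cfap genes, tektins and radial spoke genes, near white for most heavy chains, and TG3 replicate 3 is the bluest column for many members.

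The heat map of all members shows 3 kinds of row. In the first, the C57BL/6 array stood alone above 6 even arrays, as in Meig1 and Cfap36. In the second, as in most heavy chains, C57BL/6 lay among the arrays of the line. The third had its extreme on TG3 replicate 3, as in Dnal4 and Cfap100.

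Among dynein light chains, Dynlrb2, the roadblock light chain prominent in testis and ciliated cells, fell furthest of all members. It read 7.94 on the C57BL/6 array, 4.38, 4.34 and 4.38 in TG3, and 3.55, 4.22 and 4.43 in nonTG3. Every array of the line was far below C57BL/6, and TG3 and nonTG3 overlapped. The decrease of 13.3-fold (log2 difference -3.73, SE 0.31) had a limma adjusted p of 0.00535. Its widely expressed paralog Dynlrb1 read 6.18 on the C57BL/6 array, 6.64, 6.20 and 6.45 in TG3, and 6.22, 5.73 and 6.08 in nonTG3, so C57BL/6 lay within the line's range (log2 difference 0.04, limma adjusted p of 1). Dynll1, a light chain shared with cytoplasmic dynein, had a mean of 4.13 ± 0.28 (SD, n = 6) in the line against 4.04. Its paralog Dynll2 had 5.86 ± 0.06 (SD, n = 6) against 6.19, a log2 difference of -0.33 at an adjusted p of 0.218. The outer arm intermediate chains were not called: Dnaic1 had a log2 difference of -0.15 and Dnaic2 of -0.01. The class of 9 had 1 call and a median of -0.01. Dynlrb2 stayed called with any single array of the line left out, at an adjusted p of at most 0.0294.

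Heavy chains, the motor subunits themselves, had 0 calls in 12 probe sets by limma, with 2 at an unadjusted p under 0.05, near the share of all probe sets, and a median of -0.03. Without TG3 replicate 3 they had 2 calls. Dnah8, an outer arm heavy chain of the sperm tail, had the smallest p. It read 7.31 on the C57BL/6 array, 6.20, 6.20 and 5.62 in TG3 and 6.08, 6.20 and 6.31 in nonTG3. All 6 arrays of the line were below C57BL/6, and the log2 difference was -1.22 with a limma adjusted p of 0.0746. Dnah14 had a mean of 4.25 ± 0.17 (SD, n = 6) in the line against 5.07, at an adjusted p of 0.116. With Dnah6, these were the 3 of 12 that lay below C57BL/6 on every array of the line. Both Dnah2 probe sets were near C57BL/6, at log2 differences of -0.02 and -0.09. Equal values limit this class: 9 of 12 heavy chain probe sets took at most 4 different values across the line, 75%, where 30.9% of all probe sets did. Dnah7a has near-identical copies, and its values may mix them.

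**Figure D2:**
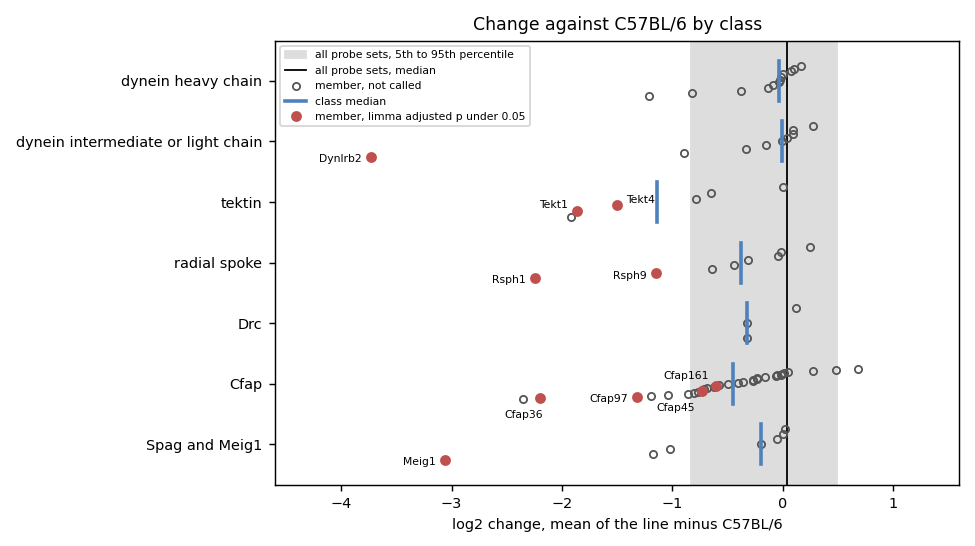
Log2 difference between the mean of the line and the C57BL/6 array (x axis) for each member probe set (points) by class (y axis), with class medians as blue bars and calls in red. The grey band spans the 5th to 95th percentile of all probe sets, from -0.83 to 0.49, and the black line is their median. Dynlrb2 and Meig1 lie farthest left, tektins have the lowest class median at -1.14, and heavy chains centre near 0.

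Tektins, filament-forming proteins of the doublet wall, had the lowest class median, -1.14, and 5 of their 6 probe sets were below C57BL/6 on every array of the line. Tekt1 read 6.73 on the C57BL/6 array, 5.07, 5.00 and 4.35 in TG3, and 4.91, 4.81 and 5.06 in nonTG3. Tekt4, a tektin of the sperm tail, read 6.61 there, 5.28, 5.32 and 4.88 in TG3, and 5.10, 4.80 and 5.30 in nonTG3. For both, the line's arrays lay apart from C57BL/6 and TG3 overlapped nonTG3. Tekt1 was 3.64-fold lower (log2 difference -1.87, SE 0.28, limma adjusted p of 0.0325), and Tekt4 was 2.82-fold lower (-1.50, SE 0.24, adjusted p of 0.0388). The class count of 2 was 1 without TG3 replicate 3 and 0 without any other single array. Tekt1 kept its call in 1 of those 6 fits and Tekt4 in 0, with adjusted p up to 0.109 for each, from leaving out nonTG3 replicate 2 and nonTG3 replicate 1.

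Tekt3 read 4.74 on the C57BL/6 array, 2.75, 3.35 and 2.84 in TG3 and 2.91, 2.22 and 2.91 in nonTG3. Those line values lie below the lowest array median, where signal above background was not measured, and the adjusted p was 0.0528. Tekt5 had a mean of 5.33 ± 0.30 (SD, n = 6) against 5.98, at an adjusted p of 0.478. The probe sets of Tekt2 disagreed. One had a mean of 5.89 against 6.67 (log2 difference -0.78, limma adjusted p of 0.326), and the other had 5.78 in the line and 5.78 on the C57BL/6 array.

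Radial spoke genes had 2 calls in 8 probe sets and a median of -0.38. Rsph1, a spoke head protein, read 7.84 on the C57BL/6 array, 5.63, 6.00 and 5.49 in TG3 and 5.72, 5.00 and 5.72 in nonTG3. Rsph9, also of the spoke head, read 5.55 there, 4.43, 4.41 and 4.43 in TG3 and 4.46, 4.39 and 4.31 in nonTG3. Rsph9 was the more even of them across the line. Rsph1 was 4.75-fold lower (log2 difference -2.25, SE 0.33, limma adjusted p of 0.0287) and Rsph9 2.22-fold lower (-1.15, SE 0.10, adjusted p of 0.00618). Rsph9 stayed called with any single array left out, at an adjusted p of at most 0.0286, and Rsph1 only without nonTG3 replicate 2, with adjusted p up to 0.0894 without TG3 replicate 1. The remaining spoke genes gave no call. Rsph3a and Rsph3b are near-identical copies whose signals may mix, and the probe sets of Rsph3a had log2 differences of -0.64 and -0.02.

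Cfap genes, the largest class, had 4 calls in 32 and a median of -0.45, and 20 of 32 were below C57BL/6 on every array of the line. The count was 4 without TG3 replicate 1 or TG3 replicate 3, 2 without nonTG3 replicate 2 and 1 without TG3 replicate 2, nonTG3 replicate 1 or nonTG3 replicate 3. Cfap36, a protein that binds the small GTPase Arl3, read 7.35 on the C57BL/6 array, 5.17, 5.20 and 5.09 in TG3 and 5.19, 5.01 and 5.21 in nonTG3. Its 6 line arrays spanned a narrow band well below C57BL/6, and the decrease of 4.60-fold (log2 difference -2.20, SE 0.12) had a limma adjusted p of 0.00218 and stayed called with any single array left out. Cfap97 read 6.51 on the C57BL/6 array, 4.83, 5.18 and 5.45 in TG3, and 5.19, 5.26 and 5.21 in nonTG3. It was 2.51-fold lower (log2 difference -1.33, SE 0.22, adjusted p of 0.0411), and kept its call without TG3 replicate 1 or TG3 replicate 3 but in no other fit of this kind, with an adjusted p of 0.123 without nonTG3 replicate 2.

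Cfap45 and Cfap161 are proteins inside the doublet microtubules. Cfap45 read 5.54 on the C57BL/6 array, 4.84, 4.81 and 4.66 in TG3, and 4.84, 4.84 and 4.86 in nonTG3, a 1.66-fold decrease (log2 difference -0.73, SE 0.11, limma adjusted p of 0.0295). Cfap161 read 4.70 on the C57BL/6 array and 4.09 on all 6 arrays of the line, a 1.52-fold decrease (log2 difference -0.61, SE 0.09, adjusted p of 0.0278). With 1 distinct value on the line, Cfap161 has no measured spread there, so its SE comes from the prior of the model. Both kept their call without TG3 replicate 1 or TG3 replicate 3 and lost it without any other single array, with the highest adjusted p, 0.0828 and 0.0677, without nonTG3 replicate 2.

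Some Cfap genes had large differences and no call, and are named after their values were seen. Cfap97d1, needed to maintain the sperm tail axoneme, read 8.37 on the C57BL/6 array, 6.13, 5.83 and 4.89 in TG3 and 6.07, 6.39 and 6.75 in nonTG3. Its log2 difference of -2.36 had a limma adjusted p of 0.0778, with a spread in the line of 0.63 (SD, n = 6). Cfap206, a protein at the spoke base, had a mean of 6.98 ± 0.47 (SD, n = 6) against 8.17, at an adjusted p of 0.330. Cfap298 and Cfap299 had log2 differences of -0.86 and -1.04 at adjusted p of 0.0842 and 0.0901. In contrast, Cfap100 read 6.92 on the C57BL/6 array and 7.41 ± 0.55 (SD, n = 6) in the line, at an adjusted p of 0.991.

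**Figure D3:**
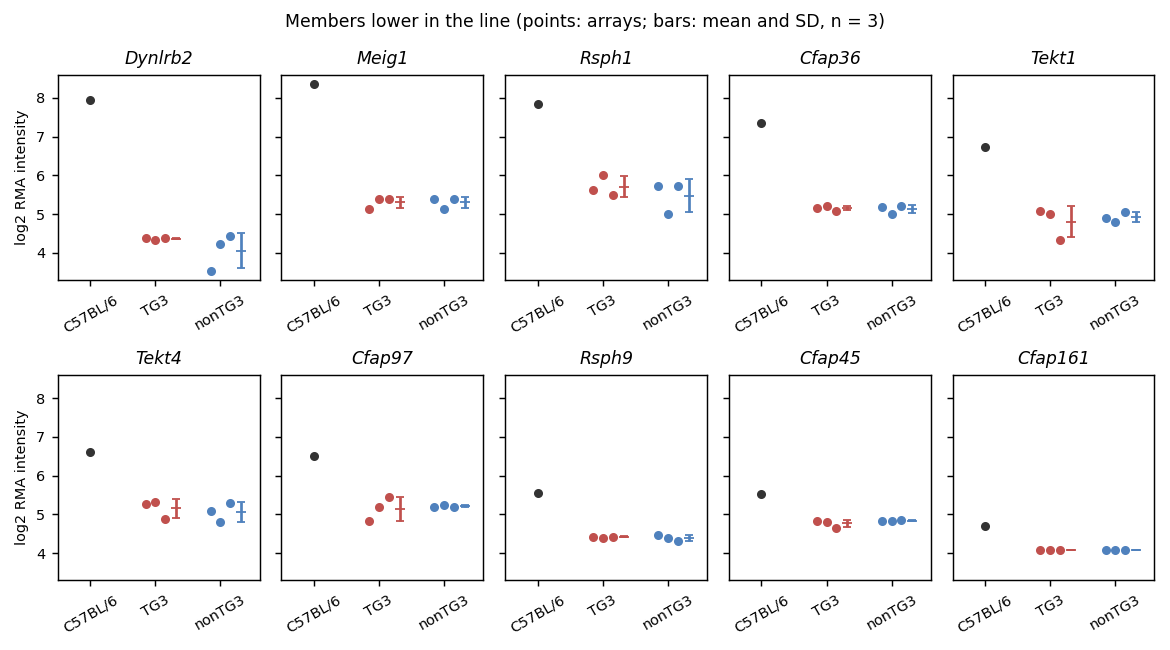
Log2 intensity (y axis) of the 10 members called lower in the line, with the C57BL/6 array and each TG3 and nonTG3 array as its own point and the mean and SD (n = 3) of TG3 and of nonTG3 as bars beside them. All 6 arrays of the line lie below the C57BL/6 point in each of the 10, and TG3 and nonTG3 points overlap.

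In the Spag and Meig1 group, Meig1, which acts in transport along the manchette of elongating spermatids, read 8.36 on the C57BL/6 array, 5.14, 5.38 and 5.38 in TG3 and 5.38, 5.14 and 5.38 in nonTG3. The line took 3 distinct values, 4 of its arrays being tied, and TG3 and nonTG3 overlapped. The decrease of 8.33-fold (log2 difference -3.06, SE 0.16) had a limma adjusted p of 0.0021 and held with any single array left out, at an adjusted p of at most 0.0140. Spag6l, a central apparatus protein, had a mean of 5.02 ± 0.16 (SD, n = 6) against 6.05, at an adjusted p of 0.0572. Spag17, of the same structure, had a mean of 5.02 ± 0.22 (SD, n = 6) against 6.20 at an adjusted p of 0.0553, while its other probe set read 2.39 on the C57BL/6 array, 2.39, 2.36 and 2.52 in TG3 and 2.39 on each nonTG3 array, all under the lowest array median. Spag16 had a mean of 6.61 ± 0.31 (SD, n = 6) against 6.66. Of the probe sets of Spag6, a near copy of Spag6l, 1 had a log2 difference of -0.20 and the other read 3.02 on the C57BL/6 array and 2.89 to 3.18 in the line, under the lowest array median. The 3 Drc genes had 0 calls by limma and 0 at an unadjusted p under 0.05: Drc1 had a log2 difference of -0.33 and Drc3 of -0.32, at adjusted p of 0.457 and 0.595, and Drc7 of 0.12.

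TG3 and nonTG3 were also set against C57BL/6 separately, on the same single C57BL/6 array, so these results are not independent of each other. In TG3 8 members were called lower, 10.4% against 2.41% of all probe sets, and in nonTG3 9, 11.7% against 2.43%. Cfap97 was called in neither, and Tekt4 in nonTG3 alone, with no test of that difference between them beyond TG3 against nonTG3. The median of the members was -0.34 in TG3 and -0.28 in nonTG3. The TG3 count was 4 without TG3 replicate 1, TG3 replicate 2, nonTG3 replicate 1 or nonTG3 replicate 3 and 5 without nonTG3 replicate 2, and the nonTG3 count was 5 without TG3 replicate 1 and 4 without TG3 replicate 2 or any single nonTG3 array. Dynlrb2, Meig1, Cfap36 and Rsph9 stayed called in every one of these fits. Each member count by limma was 0 when its group was fitted with C57BL/6 alone, against 0% of all probe sets for TG3 and 0.23% for nonTG3. There 25 members in TG3, 32.5% against 12.2% of all, had an unadjusted p under 0.05, and 29 in nonTG3, 37.7% against 14.6%. Without both arrays of low mitochondrial RNA each count by limma was 0, also among all probe sets. At an unadjusted p under 0.05 were then 28 members in TG3, 36.4% against 13.5% of all, and 26 in nonTG3, 33.8% against 12.5%.

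TG3 against nonTG3 asks whether carrying the transgene goes with a difference among littermates, and no member passed the test. limma called 0 of 77, as it called 0% of all probe sets. At an unadjusted p under 0.05 there was 1 member, 1.30%, against 2.38% of all. That was Cfap99, which read 4.68, 4.59 and 4.18 in TG3 and 4.84, 5.06 and 5.27 in nonTG3 (log2 difference -0.57, unadjusted p = 0.0209 and adjusted p = 0.923 by limma). Every TG3 value lay below every nonTG3 value. Cfap99, Dnaic2 and Rsph3b were the 3 members whose groups did not overlap, 3.90% against 4.12% of all probe sets. Dnaic2 read 3.98, 3.91 and 4.00 in TG3 and 3.78, 3.89 and 3.83 in nonTG3.

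The 2 members of each class with the smallest p between TG3 and nonTG3 had these log2 differences of TG3 minus nonTG3. Among heavy chains, Dnah17 had 0.14 and Dnah10 -0.39, and among light chains Dynlrb1 had 0.42 and Dnal1 -0.22. Tekt5 had -0.21, and Tekt3, with the readings given above, lay below the lowest array median. Of the spoke genes 1 Rsph3a probe set had 0.29 and Rsph3b -0.17. Beside Cfap99, Cfap97d1 had -0.79, and of the Spag genes Spag16 had -0.31 and Spag17 -0.19. The limma adjusted p was 0.923 for each of these, and it was 0.940 for Drc7 (-0.14) and 0.975 for Drc3 (-0.03). The median over the 77 was -0.02, and without single arrays it lay between -0.07 and 0.01.

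Within the line, the members did not vary alike on every array. TG3 replicate 3 was alone the lowest of the 6 arrays for 35 of 77 members, 45.5%, against 19.2% of all probe sets. The share was 8 of 12 among heavy chains and 16 of 32 among Cfap genes. In the related lists read below it was 42.9% to 52.6%, among them tubulins and their enzymes (46.4%) and cytoplasmic dynein and dynactin (43.8%). The exceptions were ciliary transcription factors (22.2%) and further dynein and radial spoke subunits (8.33%). The median deviation of heavy chains from their line mean was -0.26 on that array, that of tektins -0.22, that of Cfap genes -0.19 and that of radial spoke genes 0.07, against 0.00 for all probe sets. Dnah7a read 5.94, 5.40 and 4.58 in TG3 and 5.50, 5.44 and 5.78 in nonTG3, and Dnal4 read 6.55, 5.87 and 5.05 in TG3 and 5.82, 6.14 and 6.64 in nonTG3. In both, chosen after their values were seen, TG3 replicate 3 was the lowest array and TG3 replicate 1 or nonTG3 replicate 3 the highest. nonTG3 replicate 3 was alone the highest for 25 of 77 members, 32.5%, against 20.0% of all probe sets. It and TG3 replicate 1 are the arrays of low mitochondrial RNA, and on them the fibroblast, muscle and vessel markers had means of 5.75 and 5.99 against 4.66 to 5.12 on the other line arrays. Their part in the order of the arrays was not tested.

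**Figure D4:**
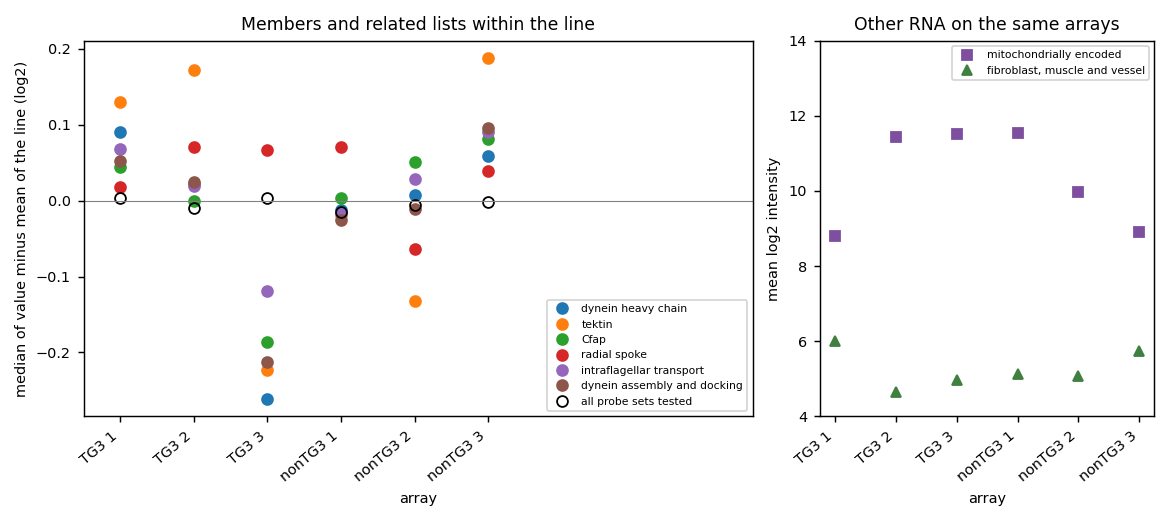
Left, the median over each class or list of log2 value minus line mean (y axis) on each of the 6 arrays of the line (x axis), with all probe sets as open circles. Right, the mean log2 intensity of mitochondrially encoded RNA (squares) and of fibroblast, muscle and vessel markers (triangles). Heavy chains, tektins, Cfap genes, assembly factors and intraflagellar transport genes lie below 0 on TG3 replicate 3, where radial spoke genes lie at 0.07.

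Genes that work with the axoneme under other names were read from lists of 8 kinds in the line against C57BL/6, where 2.85% of all probe sets were called lower. Further dynein and radial spoke subunits had the most calls, 6 of 12 probe sets with a median of -1.10. On each line array 11 of 12 lay under C57BL/6, against 14.3% of all probe sets. They included Nme5, a spoke protein, with a mean of 4.68 ± 0.27 (SD, n = 6) against 7.37, and Nme8, an outer arm thioredoxin, with 4.48 ± 0.14 (SD, n = 6) against 6.92. Tctex1d2, a light chain, had 5.20 ± 0.47 (SD, n = 6) against 7.75, and Ropn1l, a spoke stalk protein, had 6.66 ± 0.22 (SD, n = 6) against 8.43. Their limma adjusted p-values were 0.0109, 0.0034, 0.0358 and 0.0178. With single arrays left out, Nme5 and Nme8 kept their calls in all 6 fits, while Tctex1d2 lost it in 5, with an adjusted p of 0.115 without nonTG3 replicate 2, and Ropn1l in 4, with 0.0583 without TG3 replicate 3. The count was 2 to 4 when 1 array was left out: 4 without TG3 replicate 1, 3 without TG3 replicate 2 or nonTG3 replicate 2, and 2 without TG3 replicate 3, nonTG3 replicate 1 or nonTG3 replicate 3.

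Doublet inner and ruler proteins had 4 calls in 21 (Enkur, Ccdc113, Ccdc65 and Tex43, median -0.48), and 2 without nonTG3 replicate 1 or nonTG3 replicate 2 and 1 without nonTG3 replicate 3. Dynein assembly and docking factors had 3 in 19 (Ttc25, Lrrc6 and Dnaaf1, median -0.36), 2 without TG3 replicate 1 and 1 without TG3 replicate 2, nonTG3 replicate 1 or nonTG3 replicate 2. Intraflagellar transport genes, which carry tail cargo, had 3 in 32 (Wdr35, Ttc30a2 and Ift74, median -0.23), and 1 without TG3 replicate 2 or any single nonTG3 array. Central apparatus genes had 0 in 9 by limma, with 1 at an unadjusted p under 0.05 and a median of -0.10. Kif9, a kinesin of that structure, had the smallest p, with 5.26 ± 0.38 (SD, n = 6) against 6.27 at a limma adjusted p of 0.250. Cytoplasmic dynein and dynactin, the transport motor outside the axoneme, had 0 in 16 by limma, with 2 at an unadjusted p under 0.05 and a median of -0.11. The roadblock light chain Dynlrb2 was counted among the members by its name and is not in this list. The members and this list therefore do not separate axonemal from cytoplasmic dynein. In the cytoplasmic list the dynactin subunit Actr1a had the smallest p, with 6.28 ± 0.07 (SD, n = 6) against 6.77 at a limma adjusted p of 0.0863. Tubulins and their enzymes had 1 in 28, Agbl2, near the 2.85% of all probe sets called lower, with a median of 0.02. Enkur, Ttc30a2 and Agbl2 read below the lowest array median in the line.

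Of ciliary transcription factors, 1 of 18 probe sets was called lower, Tbpl1, a TBP-related factor of spermatids, and it was not called without TG3 replicate 3 or without any single nonTG3 array. Foxj1, the factor that switches on motile cilia genes, had a mean of 4.66 ± 0.14 (SD, n = 6) against 4.66 on the C57BL/6 array. Rfx2, an X-box factor of male germ cells, had 6.84 ± 0.36 (SD, n = 6) against 6.69, at a limma adjusted p of 1. Of the 10 members called, 8 had a promoter in the table, and Cfap45 and Tekt4 were the 2 with an X-box match. Of the 10 genes with an X-box match, 6 had a probe set below C57BL/6 on every array of the line. Counted by probe set and not by gene, 53.2% of all members did so. In none of the lists was a probe set higher in the line by this test.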

How the data were processed

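Sperm RNA of mice was measured on 7 arrays. The authors deposited RMA values on the log2 scale, and the submitters' processing notes name R 3.1.0, oligo, RMA and limma. RMA corrects background, brings arrays to a common distribution, so total RNA per cell is not measured, and summarises probes. Many probe sets have tied values across arrays, and the cause of the ties was not tested. The number of arrays limits the precision. No genome build, filter or scan batch is given in the sources used here.

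Among 33604 probe sets, 23493 carried 1 gene symbol and were tested, while 1801 carried several and 8310 carried none. The 7 probe sets with several symbols, 1 of which fitted the member rule, were left out. Entrez identifiers matched all 77 member probe sets to the RefSeq gene table, which changed 0 symbols. Of the members, 67 had a mean over all 7 arrays at or above the lowest array median of 3.52. No fold is given for the others.

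limma 3.58.1 in R 4.3.3 was fitted to all 7 arrays with a mean per group and eBayes moderation (4 residual and 1.65 prior degrees of freedom). Benjamini-Hochberg adjustment ran over all 23493 probe sets with a threshold of 0.05. The p-values rest on the spread between pools within TG3 and within nonTG3 and on the prior of the model. With 1 array, the spread between C57BL/6 pools was not measured. The fit was tested on simulated data. The named genes were the called members, all tektins, the Spag and Meig1 group, Dynlrb1, Dynlrb2, Dynll1 and Dynll2, per class the 2 smallest p between TG3 and nonTG3 and, with under 2 calls, in the line, and up to 4 called members per list. Members and lists were chosen with earlier results of these data known. Alternatives were other normalizations, eBayes settings, array weights, filters, thresholds, fewer groups, single arrays left out and a replicate block. Those without both arrays of low mitochondrial RNA, or without probe sets of 4 or fewer distinct values, were chosen after seeing the data. A direction is followed through them for members whose 6 line arrays lay on 1 side of C57BL/6, and for those named between TG3 and nonTG3. Figures were drawn with matplotlib 3.10.9.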

Additional observations from a re-analysis of the deposited data

Results flagged for a closer look

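Rsph3b, a radial spoke gene, was the member whose groups lay on opposite sides of C57BL/6. It read 5.65 on the C57BL/6 array, 5.60, 5.58 and 5.40 in TG3, all below it, and 5.70, 5.66 and 5.73 in nonTG3, all above it. The log2 difference of TG3 minus nonTG3 was -0.17, with a limma adjusted p of 0.923. Rsph3b is a near-identical copy of Rsph3a, and the C57BL/6 level rests on 1 array.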

How the results depend on the processing

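Main counts of members called lower than C57BL/6 were 10 for the line, 8 for TG3 and 9 for nonTG3. Cyclic loess gave 16, 13 and 14, an adjusted p under 0.01 gave 4, 4 and 4, and one under 0.1 gave 17, 15 and 14. For the line, these settings called 3.58%, 1.01% and 4.00% of all probe sets lower, against 2.85% in the main fit. The shares of all probe sets for TG3 and for nonTG3 moved the same way. These rises and falls were therefore not limited to the members. A repeated quantile normalization gave 5 members for nonTG3, as did testing all probe sets of the table. Of all probe sets, 2.22% and 1.99% were then called lower. Fits of C57BL/6 with TG3 alone, or with nonTG3 alone, gave 0, with 0% and 0.23% of all probe sets called lower. Without both arrays of low mitochondrial RNA all 3 counts were 0, with adjusted p from 0.0653 for Meig1 to 0.193 for Rsph1 in the line and 2 fewer arrays in the fit. Leaving out single arrays gave 4 to 11 for the line, 4 to 8 for TG3 and 4 to 9 for nonTG3. Of all probe sets, 1.46% to 2.04%, 1.15% to 1.39% and 0.95% to 1.65% were then called lower. The median for nonTG3, -0.28, was -0.20 after quantile normalization and -0.35 after cyclic loess. Between TG3 and nonTG3, Drc3 (-0.03) ranged from -0.12 to 0.058 with single arrays left out, with a sign turned without TG3 replicate 2 or nonTG3 replicate 3 (0.028), and Drc7 (-0.14) from -0.35 to 0.094, turned without TG3 replicate 3. Of 1000 values for single members under these settings, 792 kept direction and side of the threshold, 168 lost a call, 37 gained one and 3 turned. Against C57BL/6 only members with all 6 line arrays on 1 side of it were followed. Leaving out line arrays could therefore not turn their direction, and the count of turned values does not measure how stable directions are. Where no construction of the fit is named, the cause was not tested.

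No pairing by replicate number was seen in the values: same-numbered TG3 and nonTG3 deviations correlated at -0.45, 0.02 and -0.40, and 0 of 3 correlated best with their own number. With 3 arrays per group this cannot show whether same-numbered pools were collected or processed together. With the replicate block on the 6 arrays of the line, 0 of 77 members were called between TG3 and nonTG3, with 1 at an unadjusted p under 0.05.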
